A study of Rattus norvegicus with 16 samples.

Results

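The genes of the rat major histocompatibility complex, RT1, and of the antigen presentation machinery were compared between the stomach and the middle part of the intestine of suckling rats given saline solution or obestatin. A gene was taken when its name on the array began with RT1- or was B2m, Tap1, Tap2, Tapbp, Cd74, Ciita, Cd1d1, Ctss, Nlrc5 or Erap1, and where several probes bore a name the brightest one in Cy5, by its mean log2 signal, stood for the gene. The rule found 53 genes on 65 of 30367 probes, and no probe carried the name Nlrc5. Of these genes, 43 passed the filter on dim probes, which asks for a signal well above background on all 4 arrays of at least 1 group. The other 10, RT1-Ba, RT1-CE6, RT1-DOa, RT1-Ha, RT1-M1-2, RT1-M1-4, RT1-M1-5, RT1-M10-1, RT1-M5 and RT1-T24-2, were dim, 8 of them on every array, while RT1-M1-2 and RT1-M5 reached that level on 1 array each.

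All animals were pups of Wistar rats (Wistar Han in the methods) in standardized litters. The C group received saline solution and the OH group received obestatin, a peptide from the precursor that also gives ghrelin, at 250 nmol/kg body weight by the enteral route, 2 times a day from day 14 of life to day 21, when tissues were taken. Each of 16 arrays carried RNA of 1 rat's tissue in Cy5 against 1 common pool of RNA from all rats in Cy3, with 4 arrays for either tissue in either treatment. The methods sampled rats for both tissues but also describe each array as a specific rat, and neither they nor the labels tie array numbers to rats across the tissues.

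Class I molecules, a heavy chain bound to beta-2-microglobulin, show peptides from inside the cell to CD8 T cells and are made by nearly all nucleated cells. The peptides are cut by the proteasome and its interferon-induced immunoproteasome form, carried into the endoplasmic reticulum by the TAP transporter and trimmed there. Class II molecules show peptides from outside the cell to CD4 T cells and are made mainly by dendritic cells, macrophages and B cells, and by the small intestinal epithelium under some conditions. Both classes answer to interferon-gamma, and class II genes also need the transactivator encoded by Ciita. In the rat the classical class I genes are named RT1-A, the large families RT1-CE, RT1-N, RT1-S, RT1-T and RT1-M hold further class I and class I-like genes, and class II genes are RT1-B and RT1-D.

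The probes are 60 bases long, and several class I probes share bases because the genes are close copies of each other. Among the 903 pairs of the 43 probes, 7 pairs shared a run of 20 or more identical bases, which touched 9 genes, all of class I. The longest run was 43 bases, between RT1-CE5 and RT1-S2. The 3 probes with the most in common are shown first, with the run of 26 bases that all 3 hold in capitals. They lie on rn4, the build of the array design, at chr20:3510942-3511001 (minus strand) for RT1-CE5, chr20:2795080-2795139 for RT1-S2 and chr20:1660276-1660335 for RT1-M6-1.
RT1-CE5: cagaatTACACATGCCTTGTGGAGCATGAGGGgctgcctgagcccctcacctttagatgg
RT1-S2: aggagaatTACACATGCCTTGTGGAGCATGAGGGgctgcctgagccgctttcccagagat
RT1-M6-1: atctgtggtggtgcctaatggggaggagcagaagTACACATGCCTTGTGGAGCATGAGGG

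Copies with such runs can hybridise to each other's RNA, so the values of these probes are not separate measurements of single genes. The probes were compared only with each other and not with transcripts. Whether probes without such a run bind RNA of other genes was therefore not tested. The 4 probes below share no such run with another of the 43 probes. They stand for the widest tissue difference of all members (Ctss), the widest of class I (RT1-CE10), the peptide transporter (Tap1) and class II (RT1-Db1). Ctss lies at chr2:190466474-190466533, Tap1 at chr20:4793943-4794002 (minus strand) and RT1-Db1 at chr20:4672665-4672724 (minus strand), and the design lists no position for RT1-CE10.
Ctss: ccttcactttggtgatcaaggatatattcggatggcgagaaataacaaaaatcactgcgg
Tap1: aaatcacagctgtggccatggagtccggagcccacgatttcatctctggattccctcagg
RT1-CE10: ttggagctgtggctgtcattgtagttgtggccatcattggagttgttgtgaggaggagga
RT1-Db1: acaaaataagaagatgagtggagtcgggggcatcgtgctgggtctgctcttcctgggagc

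Of the 53 genes, 36 were placed on chromosome 20 of rn4 between bases 1414208 and 5111882, and 6 on its unplaced part.

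Promoters of the members were read from RefSeq (build GRCr8), which held 42 of the 53 genes. They were counted whether or not the gene passed the filter or differed between the tissues. The 250 bases before the annotated start were searched on both strands for GGGATTCCC (the enhancer A of class I genes), GTTTCACTT (the interferon-stimulated response element as class I genes carry it), GAAANNGAA (a general form of that element, which overlaps the form before it in RT1-N3) and TGATTGG (the Y box). These are shorter than the forms usually given, except the last. GGGATTCCC was found in 7 of 27 class I promoters and in 0.273% of all 33365 promoters. GTTTCACTT was found in 12 of the 27 and in 0.345% of all. GAAANNGAA stood before 8 of the 42 genes, B2m, Ctss, Tap1, Tap2, Tapbp, RT1-N3, RT1-S2 and RT1-S3, against 8.12% of all. By class it was found in 3 of 27 class I promoters, 0 of 8 of class II and peptide exchange, and 5 of the 7 others. TGATTGG was found in 8 of 8 promoters of class II and peptide exchange genes and in 12 of 27 class I promoters, against 6.4% of all. The 8 include RT1-Ba, RT1-DOa and RT1-Ha, which were too dim to be tested. The sequences are those of the reference assembly, not of these Wistar rats. A match is a description of letters only, and its link to the tissue difference was not tested. Promoters of 4 genes with different matches are shown, 5′ to 3′ up to the base before the start, with the matches in capitals: RT1-A2 at chr20:4872621-4872870, B2m at chr3:129549080-129549329, Ctss at chr2:185775146-185775395 and RT1-Db1 at chr20:4560163-4560412 (minus strand).
RT1-A2: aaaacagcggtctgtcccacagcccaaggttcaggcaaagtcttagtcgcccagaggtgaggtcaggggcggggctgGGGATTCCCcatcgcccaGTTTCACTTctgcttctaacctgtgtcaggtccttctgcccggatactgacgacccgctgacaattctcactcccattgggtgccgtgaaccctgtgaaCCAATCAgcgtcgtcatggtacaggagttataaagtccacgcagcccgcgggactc
B2m: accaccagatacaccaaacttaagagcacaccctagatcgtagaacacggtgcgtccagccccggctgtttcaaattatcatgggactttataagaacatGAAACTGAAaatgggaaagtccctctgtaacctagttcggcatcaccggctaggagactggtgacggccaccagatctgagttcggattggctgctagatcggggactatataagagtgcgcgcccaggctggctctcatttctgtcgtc
Ctss: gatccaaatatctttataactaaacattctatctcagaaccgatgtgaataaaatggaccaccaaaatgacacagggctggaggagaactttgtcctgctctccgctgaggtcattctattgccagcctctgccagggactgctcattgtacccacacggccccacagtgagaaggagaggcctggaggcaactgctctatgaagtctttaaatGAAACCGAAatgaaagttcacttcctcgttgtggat
RT1-Db1: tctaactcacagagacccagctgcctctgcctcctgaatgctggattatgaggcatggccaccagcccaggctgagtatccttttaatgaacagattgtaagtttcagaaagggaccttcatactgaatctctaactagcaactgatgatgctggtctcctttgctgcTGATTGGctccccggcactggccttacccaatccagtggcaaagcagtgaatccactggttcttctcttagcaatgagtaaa

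Each array held 62976 spots, and from 69.4% to 77.6% of those that were not controls were well above background in Cy5. The median raw Cy3 signal of the reference ranged from 188 to 195 scanner units on the C arrays and from 341 to 399 on the OH arrays. Each group lay on 1 slide of its own, and the C slides were scanned on 1 day and the OH slides on another. Slide therefore cannot be told apart from tissue or from treatment, and scan day not from treatment. The 8 stomach mucosa markers were all higher in the stomach, by a median log2 difference of 6.9 in C and 6.05 in OH, and 8 of 9 enterocyte markers were lower there in both treatments, Cdx1 being the exception. In the stomach, 8 striated muscle genes had mean log2 ratios of 3.62, 3.18 and 3.92 on C stomach replicates 1, 3 and 4 and of -1.32 on replicate 2, against 0.89, -0.68, -0.70 and 0.71 on the OH stomach arrays. The mean of 5 pancreas genes was -1.55 on OH middle intestine replicate 4 and between -3.67 and -3.38 on the other arrays of that group. No member spot was saturated.

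The first question was how the antigen presentation genes differed between the stomach and the middle intestine. They were lower in the stomach as a rule. In the C group 33 of the 43 genes passed the test at an adjusted p under 0.05 (limma, Benjamini-Hochberg over 21174 probes), 32 of them lower and 1, RT1-M4, higher in the stomach. RT1-M4 passed the filter only through the stomach arrays, and its reference signal was well above background on 1 of 16 arrays. Of all probes tested, 44.9% passed, 22.3% of all being lower and 22.7% higher. The median log2 difference of the 43 genes, stomach minus middle intestine, was -0.94, against -0.01 over all probes. In the OH group 35 of the 43 passed, all lower in the stomach, where 38.2% of all probes passed, 19.1% of all being lower and 19.2% higher, and the median was -1.37 against 0.01. The arrays of C stomach lay wholly below those of C middle intestine for 22 genes (22.1% of all probes) and above them for RT1-M4 alone (21.6%), and those of OH stomach below OH middle intestine for 33 (17.7% of all probes) and above it for none (17.6%). The 2 comparisons share no array, but they share the reference pool and, for each probe, 1 estimate of the spread over all arrays. In both, 31 of the 43 genes were lower and past the threshold, as were 15.6% of all probes. In whole tissue, fewer cells of a type and less RNA per cell cannot be told apart.

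**Figure D1:**
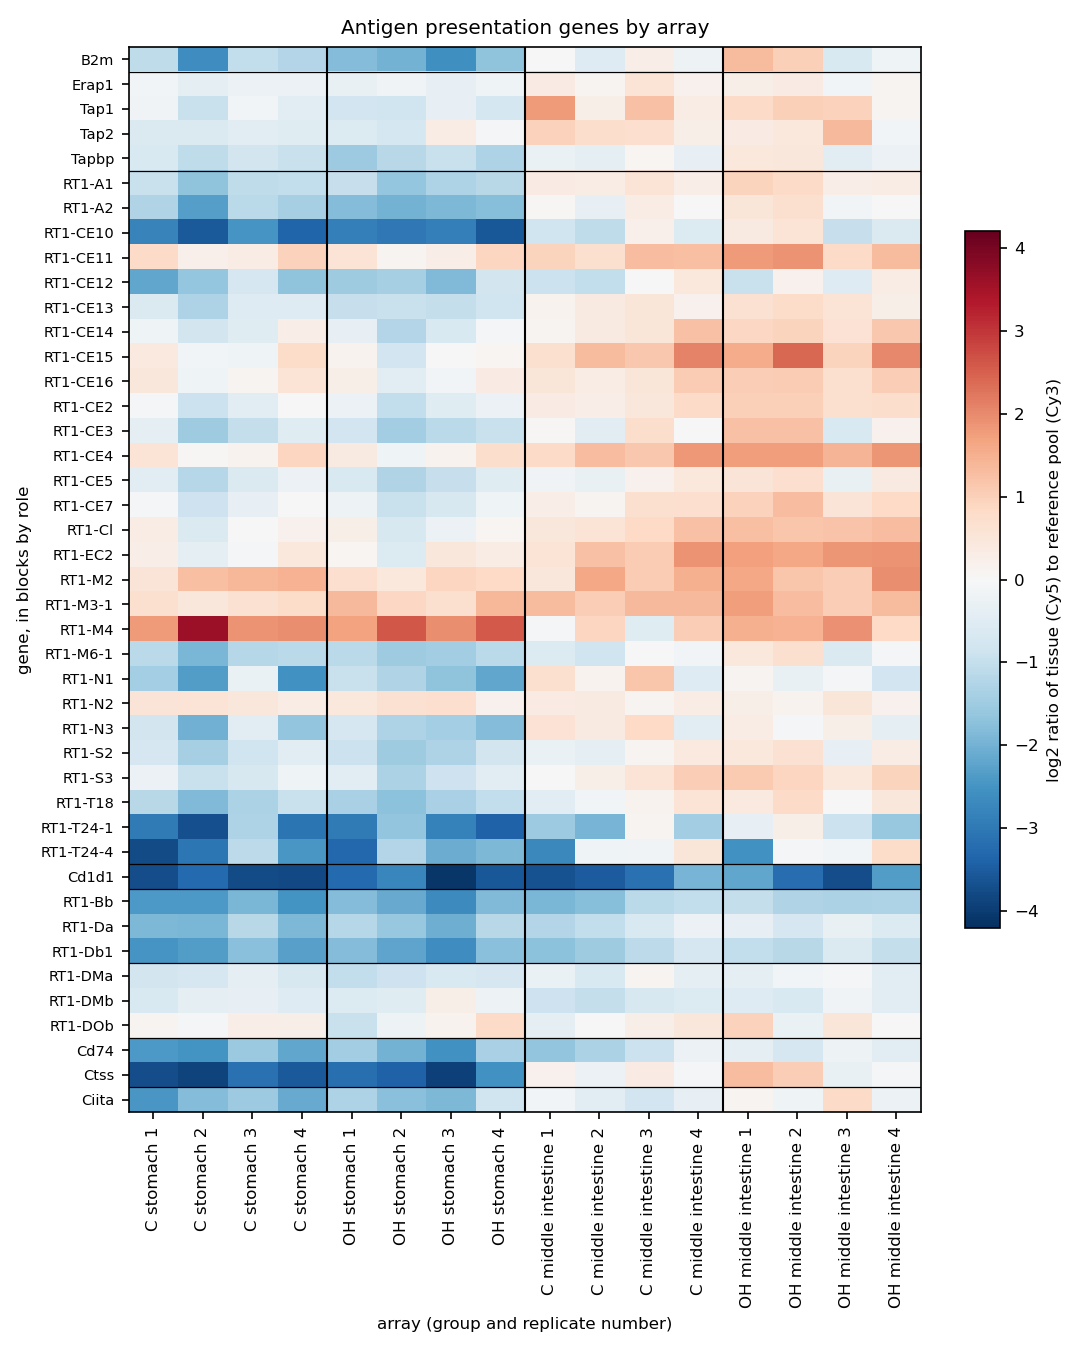
Log2 ratio of tissue (Cy5) to reference pool (Cy3) of the 43 genes, 1 per line, on the 16 arrays, 1 per column. Lines separate groups of arrays and blocks of genes by role. Blue is a log2 ratio below 0 and red a ratio above 0. Many class I lines turn from blue on the stomach arrays to red on the intestine arrays, whereas Cd1d1, Cd74 and the class II chains stay blue on all 16.

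**Figure D2:**
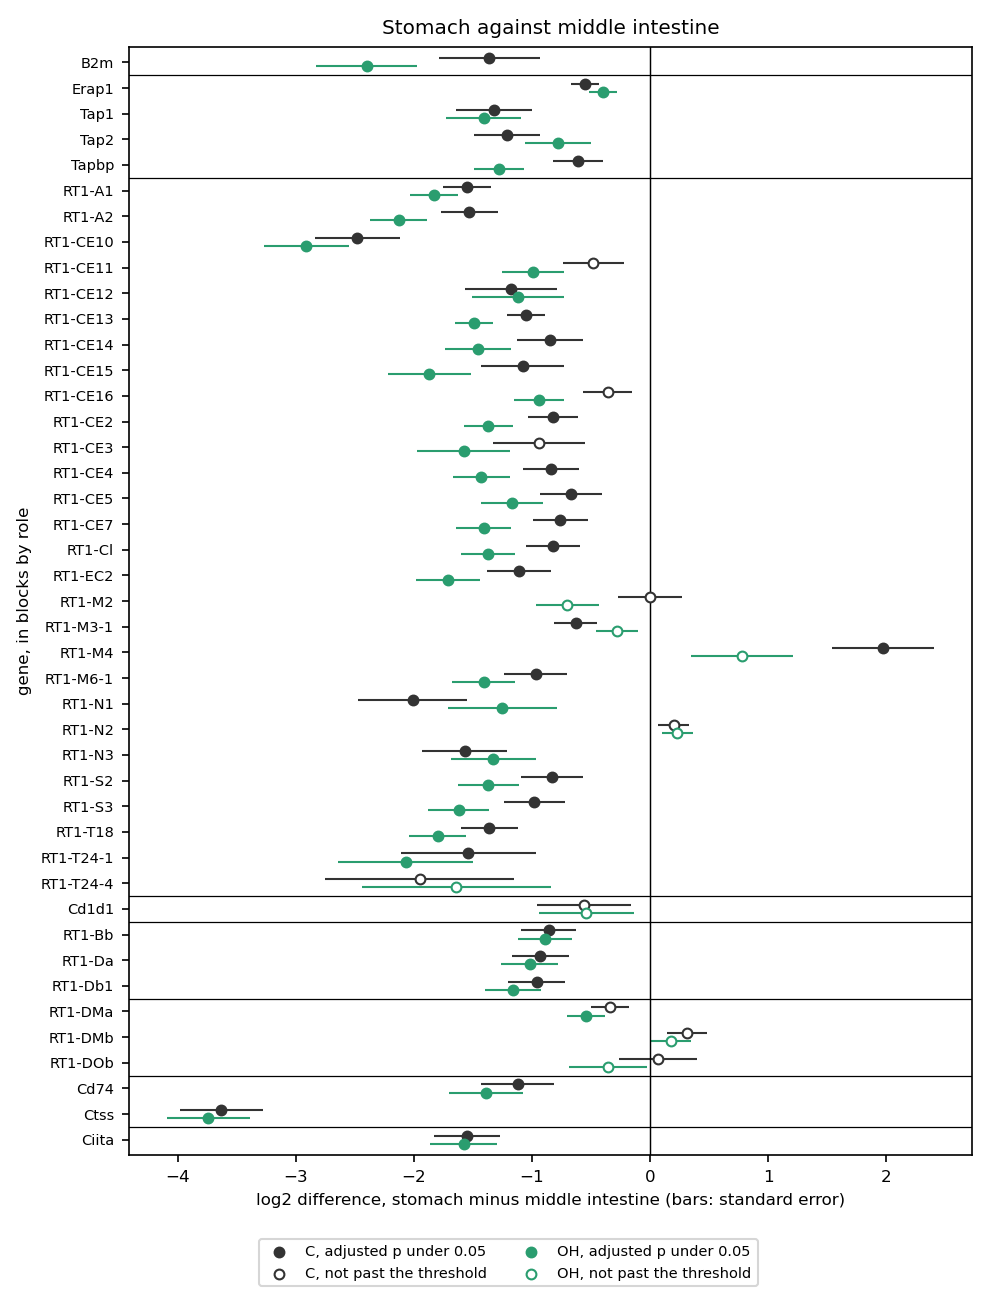
Log2 difference between stomach and middle intestine of each of the 43 genes (horizontal axis, bars are standard errors) in C (black) and in OH (green), filled where the adjusted p was under 0.05. Points lie left of 0 for 39 genes in C and for 40 in OH, and RT1-M4 has the only filled point to the right of 0.

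B2m encodes beta-2-microglobulin, the light chain that all classical class I molecules need. Its log2 ratio to the pool was -1.07, -2.61, -1.02 and -1.23 on the C stomach arrays and -0.02, -0.54, 0.27 and -0.21 on the C middle intestine arrays. It was -1.82, -1.99, -2.59 and -1.68 on the OH stomach arrays and 1.34, 1.01, -0.64 and -0.19 on the OH middle intestine arrays. The stomach arrays were below the intestine arrays in both treatments, and the intestine arrays of the OH group split into a higher and a lower pair. The log2 difference was -1.36 ± 0.43 (SE, adjusted p = 0.019) in C and -2.40 ± 0.43 (adjusted p = 0.00048) in OH, which is 2.56-fold and 5.29-fold lower. Without C stomach replicate 2, the lowest of its group, the difference in C was -0.98 with an adjusted p of 0.062.

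The genes that supply and load the peptides were lower in the stomach and past the threshold in all 4 cases in both treatments, as were 15.6% of all probes. Tap1, a subunit of the peptide transporter, had log2 ratios of -0.15, -0.94, -0.13 and -0.47 in C stomach and 1.80, 0.25, 1.22 and 0.31 in C middle intestine. In OH they were -0.80, -0.85, -0.35 and -0.74 in the stomach and 0.81, 1.00, 0.97 and 0.11 in the middle intestine. No stomach array reached the lowest intestine array, and the log2 differences were -1.32 ± 0.32 (adjusted p = 0.0039) in C and -1.41 ± 0.32 (adjusted p = 0.0029) in OH. Tap2, the other subunit of the transporter, differed by -1.21 ± 0.28 in C (adjusted p = 0.0028) and by -0.78 ± 0.28 in OH (adjusted p = 0.038), where OH stomach replicate 3 (0.30) overlapped with the middle intestine, whose lowest array was at -0.11. The reference channel of Tap2 differed by -1.06 between these OH arrays, and Cy5 alone gave -1.83 (adjusted p = 0.00016). The call for Tap2 in OH was lost when OH stomach replicate 1 or 2 or OH middle intestine replicate 1, 2 or 3 was left out, with values from -0.83 to -0.50. Tapbp, tapasin, which links the transporter to class I, differed by -0.61 ± 0.21 in C (adjusted p = 0.025) and by -1.28 ± 0.21 in OH (adjusted p = 0.00019), and the call in C was lost without C stomach replicate 2 (-0.54) or 4 (-0.59) or C middle intestine replicate 3 (-0.51). Erap1, an aminopeptidase that trims peptides in the endoplasmic reticulum, had the smallest difference of the 4, -0.55 ± 0.12 in C (adjusted p = 0.0024) and -0.40 ± 0.12 in OH (adjusted p = 0.019), with no overlap between the tissues in either, and in OH the call was lost without middle intestine replicate 1 (-0.36) or 2 (-0.34).

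Of 28 class I and class I-like heavy chain genes, 21 were lower in the stomach in C, 1 was higher and 6 did not pass, with a median log2 difference of -0.96. In OH 23 were lower and 5 did not pass, with a median of -1.41. Over all probes 22.3% passed as lower in C and 19.1% in OH. The genes lower in both numbered 20, against 15.6% of all probes. RT1-CE10 had the widest fall of the class. Its log2 ratio was -2.79, -3.53, -2.49 and -3.36 in C stomach and -0.83, -1.08, 0.22 and -0.57 in C middle intestine. In OH it was -2.87, -3.00, -2.87 and -3.55 in the stomach and 0.39, 0.58, -0.97 and -0.62 in the middle intestine. The tissues lay more than 1 log2 unit apart at their nearest arrays, and the differences were -2.48 ± 0.36 (adjusted p = 7.7e-05) in C and -2.91 ± 0.36 (adjusted p = 1.9e-05) in OH, or 5.57-fold and 7.54-fold lower.

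The classical class I genes RT1-A1 and RT1-A2 were lower in the stomach without overlap in both treatments. RT1-A2 had log2 ratios of -1.26, -2.32, -1.14 and -1.38 in C stomach and of 0.06, -0.34, 0.32 and -0.03 in C middle intestine. In OH it had -1.82, -1.97, -1.88 and -1.78 in the stomach and 0.50, 0.67, -0.11 and 0.01 in the middle intestine. The OH stomach arrays lay close together, and no stomach array approached the intestine. The differences were -1.53 ± 0.24 in C (adjusted p = 0.00015) and -2.13 ± 0.24 in OH (adjusted p = 7.3e-06). RT1-A1 differed by -1.55 ± 0.20 in C (adjusted p = 2e-05) and by -1.83 ± 0.20 in OH (adjusted p = 4.5e-06).

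Among the other families, RT1-T18 differed by -1.36 in C and -1.80 in OH (adjusted p = 0.00043 and 3.9e-05), and RT1-CE15 by -1.08 and -1.87 (adjusted p = 0.022 and 0.00071). The call for RT1-CE15 in C was lost without C stomach replicate 2 (-0.96) or 3 (-0.95) or C middle intestine replicate 4 (-0.82). The 3 probes with the common run of 26 bases gave like values: RT1-CE5 -0.67 and -1.17, RT1-S2 -0.83 and -1.37, and RT1-M6-1 -0.97 and -1.41. Second probes of a gene did not always follow the first. The second probes of RT1-T18 and RT1-CE2 fell further, by 4.10 and 3.17 in C on the log2 scale, whereas those of RT1-CE10 (-0.94, adjusted p = 0.26) and RT1-CE5 (0.67, adjusted p = 0.63) did not pass. The second probe of RT1-T24-1 did not pass in C (-0.55, adjusted p = 0.26) or in OH (-0.14, adjusted p = 0.81).

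Some class I-like genes did not share the pattern. RT1-N2 had a ratio above 0 on all 16 arrays, from 0.11 to 0.71, and differed between the tissues by 0.20 ± 0.13 in C (adjusted p = 0.21) and by 0.23 ± 0.13 in OH (adjusted p = 0.17). RT1-M2 differed by 0.00 ± 0.27 in C and by -0.70 ± 0.27 in OH (adjusted p = 0.057). RT1-M4 went the other way. Its log2 ratio was 1.79, 3.59, 1.89 and 1.94 in C stomach and -0.09, 0.91, -0.51 and 1.03 in C middle intestine, a difference of 1.97 ± 0.43 (adjusted p = 0.0019). In OH it was 1.70, 2.61, 1.94 and 2.56 in the stomach and 1.49, 1.46, 1.92 and 0.84 in the middle intestine, where the tissues overlapped and the difference was 0.78 ± 0.43 (adjusted p = 0.17). The RT1-M4 signal was well above background on every stomach array, on 1 C and 2 OH middle intestine arrays, and on 1 of 16 arrays in the reference channel. From Cy5 alone, without the reference, the difference in C was 1.02 with an adjusted p of 0.13.

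**Figure D3:**
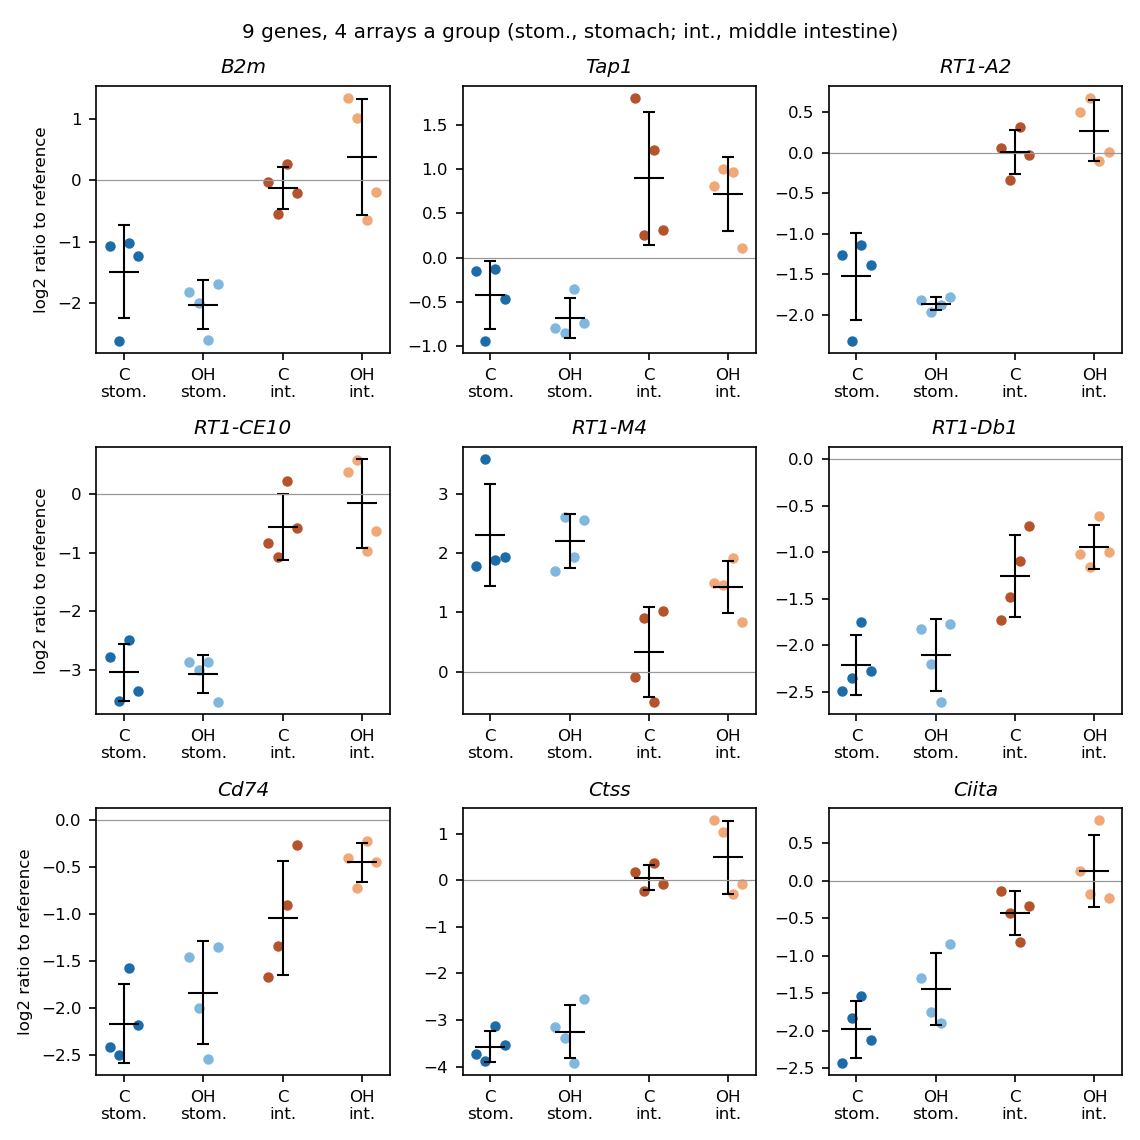
Log2 ratio to the reference pool of 9 genes on each array (points), with the mean and SD of the 4 arrays of a group (black bars); vertical axes differ between panels. Stomach points lie below intestine points in 7 panels in both treatments, in Cd74 the C groups overlap, and in RT1-M4 the stomach points lie above the intestine points in C and overlap with them in OH.

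The class II pathway had 9 genes past the filter, of which 6 were lower in the stomach in C and 7 in OH, and none higher. Over all probes 22.3% passed as lower in C and 19.1% in OH. The peptide-binding chains RT1-Bb, RT1-Da and RT1-Db1 were all lower in both, by -0.86 to -0.96 in C and by -0.89 to -1.16 in OH on the log2 scale. RT1-Db1, the beta chain of the RT1-D molecule, had log2 ratios of -2.49, -2.35, -1.75 and -2.28 in C stomach and -1.73, -1.48, -1.09 and -0.72 in C middle intestine. In OH it had -1.83, -2.20, -2.61 and -1.77 in the stomach and -1.02, -1.16, -0.61 and -1.0 in the middle intestine. The tissues in C nearly touched at their nearest arrays, and the differences were -0.96 ± 0.24 (adjusted p = 0.0048) in C and -1.16 ± 0.24 (adjusted p = 0.0016) in OH.

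Ratios of RT1-Bb, RT1-Da, RT1-Db1, Cd74 and Cd1d1 were below 0 on all 16 arrays. This held for 5 of 43 genes and for 6.04% of all probes. Tissue was always in Cy5 and the pool always in Cy3, and the part of the dyes in such ratios was not tested. The ratio was above 0 on all 16 arrays for 4 members, RT1-CE11, RT1-M2, RT1-M3-1 and RT1-N2, and for 12.9% of all probes. The reference signal of RT1-M2 was well above background on 6 of 16 arrays, so its ratios rest on a dim reference.

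Ciita, which switches on class II transcription, was lower in the stomach by -1.55 ± 0.28 in C and by -1.58 ± 0.28 in OH (adjusted p = 4e-04 in each). Its arrays read -2.43, -1.83, -1.54 and -2.12 in C stomach against -0.13, -0.43, -0.82 and -0.33 in C middle intestine. In OH they read -1.30, -1.75, -1.90 and -0.84 in the stomach and 0.13, -0.18, 0.81 and -0.23 in the middle intestine. The tissues did not overlap in either treatment.

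Cd74, the invariant chain that guards the class II groove, read -2.41, -2.50, -1.57 and -2.18 in C stomach and -1.67, -1.34, -0.90 and -0.26 in C middle intestine. In OH it read -1.46, -2.00, -2.54 and -1.35 in the stomach and -0.40, -0.72, -0.22 and -0.45 in the middle intestine. One array of each tissue overlapped in C and none in OH, and the differences were -1.12 ± 0.31 (adjusted p = 0.0093) and -1.39 ± 0.31 (adjusted p = 0.0027).

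Ctss, the gene of cathepsin S, the protease that cuts the invariant chain in antigen-presenting cells, had the widest difference of all 43 genes. Its log2 ratio was -3.74, -3.88, -3.13 and -3.54 in C stomach and 0.17, -0.23, 0.36 and -0.08 in C middle intestine. It was -3.16, -3.39, -3.92 and -2.55 in OH stomach and 1.29, 1.04, -0.30 and -0.07 in OH middle intestine. The stomach arrays lay well below every intestine array, and the differences were -3.63 ± 0.35 (adjusted p = 1.2e-06) and -3.74 ± 0.35 (adjusted p = 9.7e-07), or 12.4-fold and 13.4-fold lower.

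Of the 3 genes of peptide exchange past the filter, none passed in C and 1, RT1-DMa, was lower in OH. Over all probes 44.9% passed in C and 38.2% in OH. RT1-DMa and RT1-DMb encode the molecule that swaps the invariant chain fragment for a peptide. RT1-DMa differed by -0.34 ± 0.16 in C (adjusted p = 0.099) and by -0.54 ± 0.16 in OH (adjusted p = 0.017), a call lost without OH stomach replicate 1 (-0.46) or OH middle intestine replicate 3 (-0.47). RT1-DMb differed by 0.31 ± 0.17 in C (adjusted p = 0.16) and by 0.18 ± 0.17 in OH (adjusted p = 0.44). RT1-DOb, a chain of the molecule that restrains DM, differed by 0.07 ± 0.33 in C (adjusted p = 0.88) and by -0.36 ± 0.33 in OH (adjusted p = 0.41), and was well above background on 12 of 16 arrays.

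Cd1d1 encodes the class I-like molecule that shows lipids to NKT cells. Its log2 ratio was -3.72, -3.26, -3.75 and -3.78 in C stomach and -3.67, -3.50, -3.13 and -1.96 in C middle intestine. With obestatin it was -3.25, -2.75, -4.07 and -3.55 in the stomach and -2.18, -3.20, -3.73 and -2.33 in the middle intestine. The tissues overlapped, and the differences of -0.56 ± 0.40 in C and -0.54 ± 0.40 in OH did not pass (adjusted p = 0.27 and 0.31).

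Other genes of the pathway were read from lists. All 5 genes of the immunoproteasome and its activator, Psmb8, Psmb9, Psmb10, Psme1 and Psme2, were lower in the stomach and past the threshold in both treatments. This held for 15.6% of all probes. The medians of the 5 genes were -2.58 in C and -2.67 in OH. Psmb8 fell furthest, by 3.78 (adjusted p = 1.7e-07) and by 3.96 (adjusted p = 1.1e-07) on the log2 scale. Of 5 genes of class I folding and loading, 1 passed in C and 3 in OH, beside 44.9% and 38.2% of all probes. Tapbpl, a tapasin-related protein, was lower in both (-1.38 and -2.09, adjusted p = 0.0067 and 0.00038). Canx and Pdia3 passed in OH (0.64 and 0.62, adjusted p = 0.045 and 0.036) with like values in C (0.60 and 0.55, adjusted p = 0.053 and 0.052). Calr and Hspa5 passed in neither.

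Of 7 genes of interferon signalling past the filter, 5 passed in C and 3 in OH, beside 44.9% and 38.2% of all probes. Ifngr2, a chain of the interferon-gamma receptor, Irf1 and Irf8 were lower in both treatments. Irf8 differed by -3.04 and -2.96, Ifngr2 by -1.84 and -2.38 and Irf1 by -1.81 and -2.55. Jak1 and Jak2 were higher in C (0.35 and 0.50), and Ifngr1 passed in neither treatment. Of 7 genes for factors that bind MHC promoters, 2 passed in C and 3 in OH, where 44.9% and 38.2% of all probes passed. Their directions were mixed: Nfyb (-0.53) and Nfyc (0.41) in C, and Nfya (-0.54), Nfyc (0.46) and Rfx5 (0.74) in OH.

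Of 5 proteases and reductases of the class II route, Ifi30, the lysosomal thiol reductase, was lower in the stomach (-1.41 and -1.44, adjusted p = 4.2e-08 and 3.7e-08) and Ctsd, cathepsin D, was higher (1.43 and 1.15), and the other 3, Ctsb, Ctsh and Lgmn, passed in neither. Of 2 co-stimulation genes past the filter, Cd40 was lower (-1.47 and -1.09) and Icam1 did not pass. Beside these lists and the next, the share of all probes that passed was 44.9% in C and 38.2% in OH. Of 4 class I-like genes outside RT1, Azgp1 was higher in both (1.84 and 1.65), Hfe and Procr passed in OH (1.1 and 0.86) and not in C (0.22 and 0.21), a difference between treatments that did not pass itself, and Fcgrt, the receptor that takes up maternal IgG in the suckling gut, had values of -0.74 and -1.23 that did not pass (adjusted p = 0.22 and 0.053).

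Some leukocyte markers moved the same way. Of 15 markers 11 passed the filter, and 5 were lower in the stomach in each treatment with none higher, with medians of -1.26 in C and -0.87 in OH. Over all probes 44.9% passed in C and 38.2% in OH in either direction, and 22.3% and 19.1% passed as lower. Cd3e and Cd3d of the T cell receptor complex (-3.42 and -1.33 in C), Ptprc (-2.15), Aif1 (-1.26) and Cd8a (-2.02) were lower in C, and Cd3e, Cd3d, Ptprc, Aif1 and Cd79b in OH. Of the markers of myeloid cells, Aif1 was thus lower in both treatments, whereas Csf1r, Cd68, Itgam, Cd14 and Spi1 differed by -0.41 to 0.18 in C, and none of them passed in either treatment. The summed Cy5 signal of the 11 markers was 1887 to 2379 on the stomach arrays and 3890 to 4718 on the intestine arrays of C, and 1590 to 2774 and 3455 to 4786 on those of OH. Every one of the 15 markers was well above background on at least 1 array. The part of leukocyte content in the tissue difference was not tested.

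**Figure D4:**
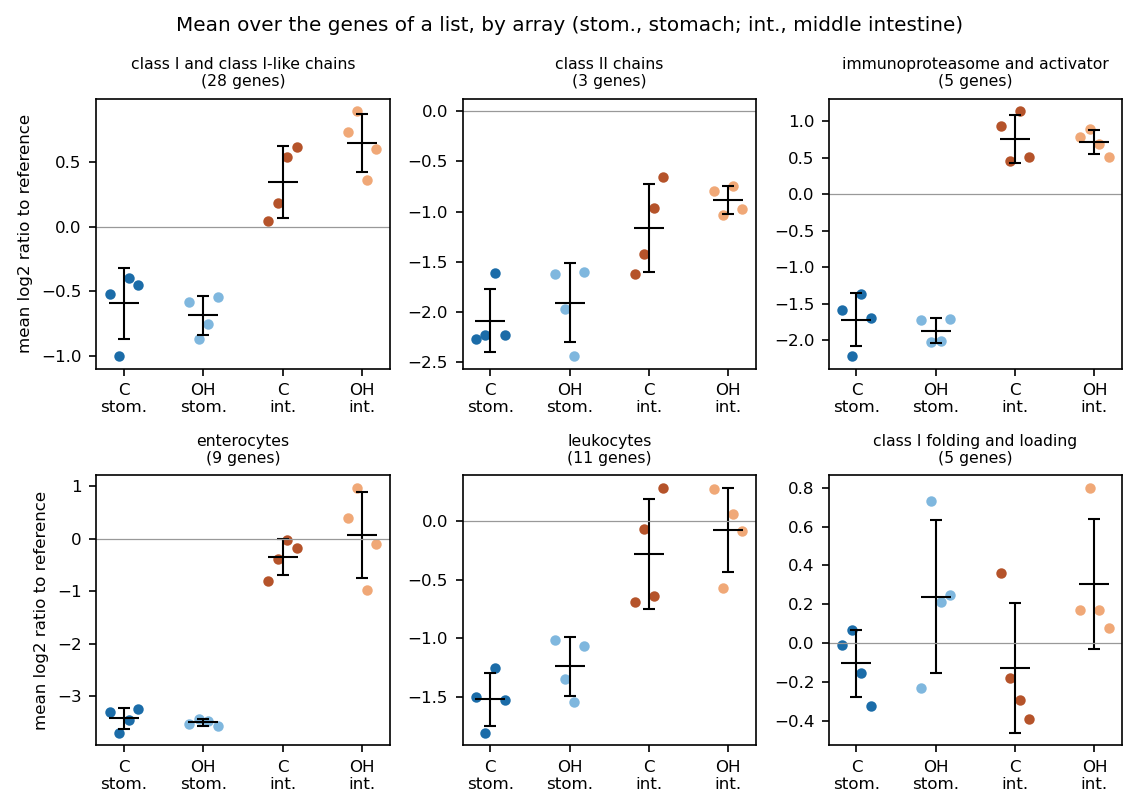
Mean log2 ratio over the genes of 6 lists on each array (points), with the mean and SD of the 4 arrays of a group (black bars); vertical axes differ between panels. The means of class I chains, immunoproteasome, enterocyte and leukocyte genes are lower on all stomach arrays than on any intestine array, and those of class I folding and loading overlap.

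The genes varied more between arrays of a group than most probes: the median pooled SD was 0.39 log2 units for the 43 members and 0.29 for all probes. The variation was shared among class I genes. C stomach replicate 2 was the lowest of its group for 21 of 28 class I genes and for all 4 genes of peptide supply, and OH stomach replicate 2 was the lowest for 18 of 28. In OH middle intestine, replicate 3 was the lowest for 18 and replicate 2 the highest for 14. The mean of the 28 genes was -1.0 on C stomach replicate 2 and between -0.52 and -0.40 on the other C stomach arrays. Without C stomach replicate 2, the count of members called in C went from 33 to 26, and without it and OH middle intestine replicate 4 to 24, with 34 in OH. C stomach replicate 2 is also the array with low striated muscle genes, and whether the 2 are linked was not tested.

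RT1-T24-4, a class I gene of the RT1-T region, had the largest pooled SD of the members, 1.23, which is larger than that of 99.5% of all probes. Its log2 ratio was -3.75, -3.02, -1.09 and -2.46 in C stomach, -2.71, -0.17, -0.15 and 0.51 in C middle intestine, -3.30, -1.23, -2.08 and -1.90 in OH stomach and -2.53, -0.07, -0.11 and 0.78 in OH middle intestine. The array numbered 1 was the lowest in all 4 groups. The tissue differences of -1.95 ± 0.80 in C and -1.64 ± 0.80 in OH did not pass (adjusted p = 0.058 and 0.12). RT1-T24-1 (SD 0.87) read -2.96, -3.68, -1.28 and -3.07 in C stomach and -1.52, -1.96, 0.10 and -1.45 in C middle intestine, where the array numbered 3 was the highest in both tissues. Its differences were -1.54 ± 0.57 in C (adjusted p = 0.039) and -2.07 ± 0.57 in OH (adjusted p = 0.0096), and the call in C was lost when any 1 of 6 of the 8 C arrays, all but C stomach replicate 3 and C middle intestine replicate 2, was left out (-1.64 to -1.10). RT1-N1 (SD 0.71) read -1.42, -2.36, -0.27 and -2.54 in C stomach and 0.68, 0.16, 1.15 and -0.54 in C middle intestine, with replicate 3 again the highest and replicate 4 the lowest in both, and differed by -2.01 ± 0.46 (adjusted p = 0.0029). The reference channel differed by 0.63 between these C arrays, and Cy5 alone gave -1.45. In OH RT1-N1 differed by -1.25 ± 0.46 (adjusted p = 0.046), a call lost when any 1 of 6 of the 8 OH arrays, all but stomach replicate 1 and middle intestine replicate 4, was left out (-1.34 to -1.03).

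The second question was whether obestatin changed these genes. In the stomach no member passed the test of OH against C, as was the case for all probes (0%). The difference was above 0 for 16 members and below 0 for 27, with a median of -0.10. From Cy5 alone the median was 0.03, against 0.02 for all probes, so the lean below 0 was not seen without the reference. All 8 striated muscle genes had lower values in OH than in C stomach (median -2.28), 5 of them at an unadjusted p under 0.05 and none after adjustment, and their part in these values was not tested. At an unadjusted p under 0.05, where 10.6% of all probes lay, 1 member was found, RT1-M3-1 (0.44 ± 0.18, adjusted p = 0.42 by limma). Its log2 ratio was 0.67, 0.46, 0.64 and 0.77 in C stomach and 1.36, 0.87, 0.68 and 1.38 in OH stomach, so that the groups overlapped at 1 OH array. The next smallest p-values belonged to Ciita (0.53 ± 0.28, adjusted p = 0.52) and Tapbp (-0.37 ± 0.21, adjusted p = 0.54), and among the other RT1 genes to RT1-M2 (-0.43 ± 0.27) and RT1-A2 (-0.34 ± 0.24).

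In the middle intestine no member passed either, against 0.368% of all probes (0.335% higher and 0.0331% lower in OH). The difference was above 0 for 37 of 43 genes, with a median of 0.30 where that of all probes was 0.00, and 2 members had an unadjusted p under 0.05 against 10.5% of all probes. Enterocyte markers were above 0 for 8 of 9 (median 0.42) and leukocyte markers for 8 of 11 (median 0.17), none past the test. On the 4 OH middle intestine arrays the enterocyte mean was 0.40, 0.97, -0.97 and -0.11, so that the arrays with higher B2m also had the higher enterocyte mean, and its part in the difference was not tested. The positive differences of the members included 25 of 28 class I genes (median 0.36), all 9 genes of the class II pathway (median 0.30), B2m (0.51 ± 0.43) and Cd1d1 (0.21 ± 0.40), while 3 of the 4 genes of peptide supply, Tap1, Tap2 and Erap1, were below 0. From Cy5 alone Erap1 was at 0.10 and Tapbp at -0.01. None of the 43 had arrays that did not overlap between C and OH, in either tissue, compared with 3.72% of all probes that lay higher and 2.13% lower in OH middle intestine, and 4.09% and 3.51% in OH stomach. Class I genes varied together between arrays, so their differences are not separate measurements.

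RT1-EC2, a class I gene, read 0.58, 1.22, 1.06 and 1.88 in C middle intestine and 1.72, 1.64, 1.87 and 1.89 in OH middle intestine (0.59 ± 0.27, adjusted p = 0.45). RT1-CE7 read 0.27, 0.13, 0.66 and 0.70 and then 0.98, 1.29, 0.55 and 0.83 (0.47 ± 0.23, adjusted p = 0.50). RT1-M4 had the smallest p (1.09 ± 0.43, adjusted p = 0.36), but this lay in the reference channel, where Cy3 differed by -1.37 on the log2 scale and Cy5 by -0.09. For Cd74 and Ciita the differences were 0.59 ± 0.31 and 0.56 ± 0.28 (adjusted p = 0.56 and 0.52).

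**Figure D5:**
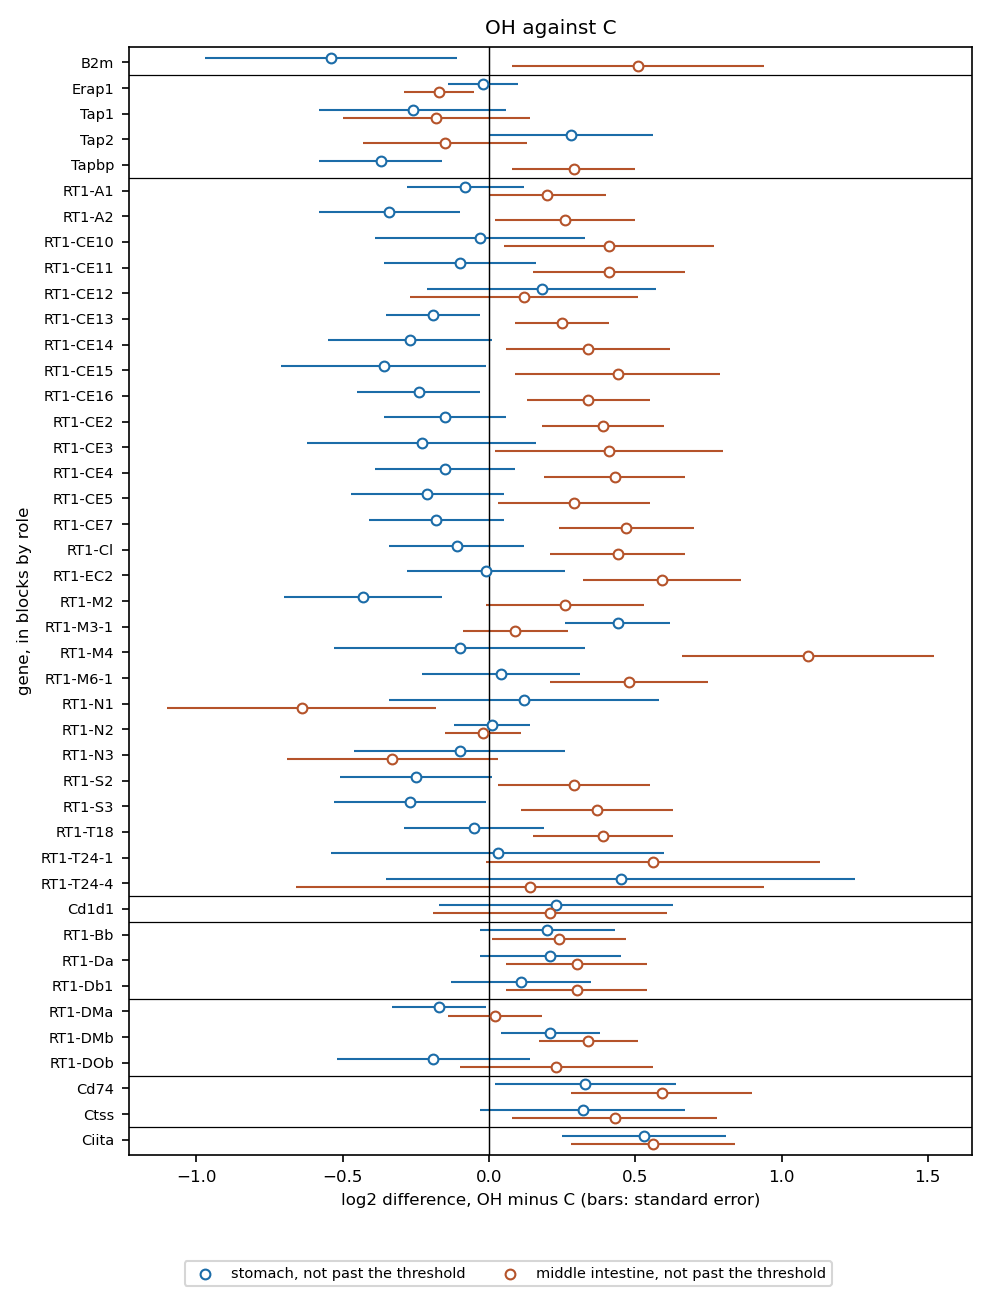
Log2 difference between OH and C of each of the 43 genes (horizontal axis, bars are standard errors) in the stomach (blue) and the middle intestine (brown). All points are open, since none passed the test, 27 stomach points lie below 0 and 37 intestine points above it.

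The response to obestatin in the stomach minus that in the middle intestine passed the test for no member and for 0% of all probes. The difference was below 0 for 34 of 43 genes, with a median of -0.44 against 0.01 for all probes. Only Tapbp had an unadjusted p under 0.05 (-0.67 ± 0.29, adjusted p = 0.84), where 5.85% of all probes did. The standard errors of the treatment differences ran from 0.12 for Erap1 to 0.80 for RT1-T24-4, and no member had an adjusted p under 0.05 by limma. The absence of a call does not show that obestatin left these genes as they were.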

How the data were processed

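Total RNA was measured on Agilent SurePrint G3 Rat GE 8x60K arrays, 4 for each of 4 groups taken from the labels. The authors deposited, per array, Feature Extraction output with processed intensity in both channels (background subtracted, dye-normalized by the software) and a table of log10 ratio values of Cy5 to Cy3. The version is 10.10.1.1 in the file headers and 10.7.3.1 in the submitters' processing notes. From the processed intensities log2(Cy5/Cy3) was taken, without further scaling. Outlier and control spots were left out and spots of a probe averaged. Differences of Cy5 or Cy3 alone, and summed Cy5 signals, were taken after quantile normalization of that channel over the arrays. The differences of the channels therefore need not add up to those of the ratios. Probes had to be well above background in Cy5 throughout 1 group (4 arrays) and to have 3 or more values per group, which left 21174 of 30367. All 16 arrays were fitted with 1 mean per group (limma 3.58.1, R 4.3.3), adjusted by Benjamini-Hochberg, and the fit was tested on simulated ratios. The number of arrays limits the precision.

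The genes named by values were B2m, the TAP, class II and other non-RT1 members, and of the remaining RT1 genes the 5 with the largest change without overlap in each tissue comparison, the 3 with the smallest p in each treatment comparison and the 4 with the largest pooled SD. RT1-N2, RT1-S2, RT1-M6-1, RT1-CE5, RT1-CE11, RT1-CE13, RT1-CE16 and RT1-CE2 were named after their values were seen. A gene of the interferon list and a pair of probe sequences are not reported here. The members and lists were chosen with earlier results of these data known. Gene names and rn4 positions are those of the array design; promoters are those of RefSeq, GRCr8. The alternatives were 16 planned ones, leaving out each array in turn among them, and a replicate block within treatment added after seeing the data.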

Additional observations from a re-analysis of the deposited data

Results flagged for a closer look

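For 43 genes in 4 groups, 10 of 172 sets of 4 arrays held an array whose gap to the nearest of the others exceeded Dixon's 95% critical share of the whole range; about 8.6 such sets are expected by chance. C stomach replicate 2 was the array in 5 of them. It was below the others for B2m (gap 0.869 of the range, -2.61 against -1.23 to -1.02), RT1-CE13 (0.917, -1.29 against -0.61 to -0.55) and RT1-M6-1 (0.918, -1.93 against -1.19 to -1.12), and above them for Cd1d1 (0.884, -3.26 against -3.78 to -3.72) and RT1-M4 (0.913, 3.59 against 1.79 to 1.94). C stomach replicate 3 was above the others for the class II genes RT1-Bb (0.842, -1.92 against -2.51 to -2.41) and RT1-Da (0.974, -1.16 against -1.91 to -1.89). Single arrays were low for RT1-CE15 in OH stomach (0.867, replicate 2 at -0.80), RT1-CE16 in OH middle intestine (0.881, replicate 3 at 0.68) and RT1-M3-1 in C middle intestine (0.907, replicate 2 at 1.03).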

How the results depend on the processing

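The counts of members called in the tissue comparisons stayed within 1.5 times of 33 in C (24 to 35) and of 35 in OH (31 to 37) under all settings, single arrays left out included (26 to 35 in C, 31 to 35 in OH). The treatment comparisons and the difference between tissues gave 0 calls under every setting with an adjusted p, and 1, 2 and 1 at an unadjusted p. The ANOVA with Tukey's HSD of the methods and the fit of only the groups compared gave no value for the difference between tissues; in the tissue comparisons the ANOVA called 26 and 32. Of 1970 values of named genes under 32 settings, 1963 kept their direction. For OH against C in each tissue these values cover only the 3 class I and class I-like genes with the smallest p. Among these values, the direction turned from Cy5 alone for RT1-DOb between the C tissues (-0.15), RT1-M2 in OH against C stomach (0.04) and RT1-M4 in OH against C middle intestine (-0.09). Outside them, Cy5 alone turned further differences between OH and C, none of which passed with the reference. In the stomach these were Tap1 (0.06), Tap2 (-0.30), Erap1 (0.08), RT1-A1 (0.04), RT1-CE10 (0.28), RT1-EC2 (0.25), RT1-N2 (-0.19), RT1-N3 (0.08) and RT1-S3 (0.03). In the middle intestine they were RT1-DMb (-0.04), Tapbp (-0.01), Erap1 (0.10), RT1-N1 (0.07) and RT1-N3 (0.21). With single arrays left out, values between the C tissues went from -0.10 to 0.20 for RT1-DOb and from -0.23 to 0.21 for RT1-M2. The cause was not tested. With the replicate number as a block the counts were 35, 37, 0, 0 and 0, and RT1-T24-4 passed between the tissues in C (adjusted p = 0.003) and OH (0.0093). The deviations of same-numbered C arrays from their group means correlated at 0.06 to 0.25 over all probes and at 0.43 to 0.68 over the members (OH -0.12 to 0.32 and 0.12 to 0.48). For the members each C array correlated best with its own number, but same-numbered arrays of C and OH, which are different rats, reached 0.59 in the stomach and 0.75 in the middle intestine for single numbers and fell to -0.20 and -0.42 for others.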
